A study of Homo sapiens with 12 samples.

Results

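Poly I:C imitates viral double-stranded RNA, and the response to it was described in NS-SV-AC cells kept in 2-CM (2'-C-methyladenosine, a methylated adenosine nucleoside). NS-SV-AC is an established cell line from acini of the human salivary gland. All 4 libraries labelled with 2-CM were used, 2 transfected with poly I:C and 2 with the control named depc in the labels, which do not describe it further. Genes were kept when 2 or more of these 4 libraries reached 1 TPM (transcript abundance per length, scaled to the same total in every library). That left 16039 of the 60609 annotated genes, and the same rule over all 12 libraries of the series gave 17185. Of the 16039 genes, 1726 passed only through the poly I:C libraries and 140 only through the depc libraries. At the limit, SNORA7B was kept with a second highest value of 1.00018 TPM, and AL138976.2 at 0.998676 TPM was not.

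The series concerns double-stranded RNA of mitochondria in Sjögren's syndrome, an autoimmune disease of the salivary and lacrimal glands, and compares poly I:C with depc in cells given DMSO, 2-CM or RES (resveratrol). Every group had 2 replicates of the same cell line, and all groups were grown for 48 h. The compound was added 24 h ahead of the transfection and once more together with poly I:C. Its concentration was 20, taken to be in micromolar, and cells were exposed to poly I:C for 14 h. Both groups compared here carry 2-CM, so the comparison gives the effect of poly I:C in its presence and not the effect of 2-CM. No label says that the replicates came from separate cultures, so the tests measure the spread between libraries, which may be technical.

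Double-stranded RNA inside a cell is bound by the helicases RIG-I and MDA5, which signal through MAVS to the kinases TBK1 and IKBKE, and in endosomes by TLR3, which signals through TICAM1. These kinases activate IRF3 and, together with NF-kB, switch on type I and type III interferons. Secreted interferon acts through JAK kinases on a transcription factor complex that contains STAT2 and IRF9 and binds the interferon-stimulated response element in promoters of antiviral genes. Salivary epithelial cells are known as responders to interferon, and interferon-induced genes are a recurrent feature of glands in Sjögren's syndrome.

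That element explains why promoters are shown first. The letters GAAANNGAAA were searched on both strands, overlapping matches included, from 250 bases before to 50 bases after each start site in the RefSeq promoter table (GRCh38.p14). They were present in 1195 of 27305 genes of the table (4.38%), in 404 of the 10423 genes above the filter that had an entry (3.88%), and in 29 of 41 antiviral effector genes (70.7%). Among genes called with each library left out in turn, a set described further on, 15 of the 25 with an entry held the letters, as did 3 of 6 effectors that did not pass the test. The 6 promoters below were picked from those 15. Each is printed up to the base before the start site, and capitals mark the matches, which read TTTCNNTTTC where the element lies on the other strand.

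IFIT1 (chr10:89392497-89392622, plus strand): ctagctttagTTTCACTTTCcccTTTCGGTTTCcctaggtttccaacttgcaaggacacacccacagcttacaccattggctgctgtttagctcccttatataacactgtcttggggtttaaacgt
IFI27 (chr14:94110616-94110735, plus strand): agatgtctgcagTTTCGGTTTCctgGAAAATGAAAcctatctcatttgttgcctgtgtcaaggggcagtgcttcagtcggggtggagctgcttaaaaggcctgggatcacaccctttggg
IFI6 (chr1:27672193-27672358, minus strand): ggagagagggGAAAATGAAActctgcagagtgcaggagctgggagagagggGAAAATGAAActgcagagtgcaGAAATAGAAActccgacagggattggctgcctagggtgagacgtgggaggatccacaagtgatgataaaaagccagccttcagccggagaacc
RSAD2 (chr2:6877622-6877776, plus strand): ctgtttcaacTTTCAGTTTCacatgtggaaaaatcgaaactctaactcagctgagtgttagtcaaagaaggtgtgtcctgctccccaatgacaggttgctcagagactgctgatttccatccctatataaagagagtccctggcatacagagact
OAS3 (chr12:112938321-112938473, plus strand): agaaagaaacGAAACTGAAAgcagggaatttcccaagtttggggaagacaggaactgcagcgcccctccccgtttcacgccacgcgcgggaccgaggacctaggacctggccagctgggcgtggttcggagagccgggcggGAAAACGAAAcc
CXCL10 (chr4:76023498-76023728, minus strand): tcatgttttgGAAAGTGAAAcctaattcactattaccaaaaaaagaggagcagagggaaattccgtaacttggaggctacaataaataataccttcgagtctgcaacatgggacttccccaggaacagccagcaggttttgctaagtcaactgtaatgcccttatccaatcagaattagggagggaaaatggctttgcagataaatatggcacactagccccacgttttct

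IFI6 holds 3 matches, IFIT1, IFI27 and OAS3 hold 2, and RSAD2 and CXCL10 hold 1 upstream of the start site. In OAS3 the nearer match begins 12 bases before the start, and in CXCL10 the match begins 221 bases before it. A match is a description of the letters only and does not show that a factor is bound there.

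Depth estimated from the deposited coverage was lower in the poly I:C pair (37.1 and 31.2 M reads) than in the depc pair (49.4 and 39.7 M reads). More genes reached 1 TPM with poly I:C (16258 and 16155) than with depc (14063 and 13765). The mean GC content weighted by TPM was 48.7% and 49.0% with poly I:C against 51.6% and 52.4% with depc. Ribosomal protein genes took 11.9% and 11.97% of TPM against 15.1% and 14.2%, while mitochondrial genes took 23.2% and 24.1% against 22.8% and 23.0%. Replicates differed by more than 1 on the log2 scale for 284 genes with depc and 173 with poly I:C. The log2 ratio of 5' to 3' coverage in long transcripts was 0.0429 and 0.0296 with poly I:C against 0.116 and 0.104 with depc. The part of these differences in the gene results was not tested. Against the cell line's label, 2 of 9 acinar markers passed the filter, and AQP5, AMY1A, MUC7, PIP and STATH were listed at 0 in all 4 libraries. The epithelial keratins KRT8 and KRT18 were abundant, at 1761 and 1958 TPM and 1448 and 1571 TPM with depc, whereas CDH1 and EPCAM stayed below the filter. Of the fibroblast markers, 5 of 6 passed, COL1A2 being the one that did not, and their summed level ran from 147 to 157 TPM with depc and from 149 to 158 TPM with poly I:C. Within that sum 2 of the 5 rose and 1 fell by the rule given below, beside 22.1% and 13.0% of all genes, and 1 of the 2 rises held with a trend with GC content, described below, removed. LUM, a matrix proteoglycan, was at 4.03 and 3.43 TPM against 32.5 and 28.8 TPM. Of the leukocyte markers 2 of 7 passed, summed over the list at 16.7 and 20.4 TPM with depc and 12.3 and 9.09 TPM with poly I:C, of which CD14, a lipopolysaccharide co-receptor, was at 12.6 and 15.5 TPM against 7.23 and 7.05 TPM, a difference that turned sign on TPM once that trend was removed. PTPRC, CD3E and MS4A1 were listed at 0 throughout. In bulk RNA, fewer cells of a type and less RNA per cell cannot be told apart.

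With poly I:C, all 53 listed antiviral effectors above the filter were higher in both libraries than in either depc library, on top of a very broad shift of the transcriptome. OAS1, for one, was at 221 and 255 TPM with poly I:C against 2.32 and 1.87 TPM with depc. Of the 53, 9 had passed the filter only through the poly I:C libraries and had to be higher, and groups without overlap were common among all genes (88.5%). Limma called 8681 genes at an adjusted p under 0.05 (54.1%), 6593 higher (41.1%) and 2088 lower (13.0%). The median gene was itself 0.68 higher on the log2 scale, and after median-of-ratios scaling, which brings the typical gene to no change (0.03), the calls were 3546 higher and 4134 lower. Upper-quartile scaling gave 4421 higher and 3424 lower. A gene is therefore written here as having risen or fallen only if it was called in the same direction on both scales. That rule held for 5634 genes (35.1%), of which 3546 rose (22.1% of all genes) and 2088 fell (13.0%), and 655 of the genes that rose had passed the filter only through the poly I:C libraries. Such a gene lies below 1 TPM in both depc libraries and had to be higher with poly I:C, and of the other 14313 genes 20.2% rose, 7.01% with the GC trend described below removed as well, and 14.6% fell. Those 14313 still include the 140 genes that passed only through the depc libraries and had to be lower, of which 74 fell. The values of the 2 and 2 libraries did not overlap for 88.5% of the genes. Values below are given as replicates 1 and 2 with depc against replicates 1 and 2 with poly I:C, and apart from TICAM1 and ATF4 the groups did not overlap for any gene above the filter whose values are given. For the 12 genes named per direction by the size of their change, lack of overlap was a condition of the choice. Changes are log2 fold changes on log2(TPM + 1), with the standard error (SE), and this scale understates the change of genes below a few TPM. The SE comes from the fit of all 12 libraries in 6 groups, so it includes the spread of DMSO and RES replicates.

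**Figure D1:**
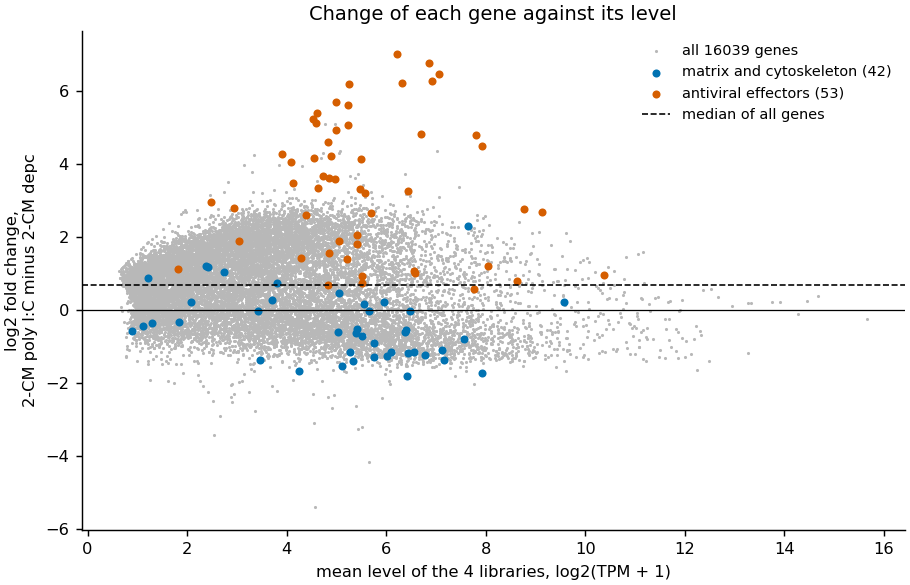
Each point is a gene, with its mean level over the 4 libraries as log2(TPM + 1) on the horizontal axis and its log2 fold change of 2-CM poly I:C minus 2-CM depc on the vertical axis. The 53 antiviral effectors lie mostly above the dashed median of all genes (0.68), and most of the 42 matrix and cytoskeleton genes lie below it.

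The change of a gene followed the GC content of its exons. Across the 16039 genes, which share libraries and are not independent replicates, Spearman's correlation of the log2 fold change with GC content was -0.82. In the third of genes with the lowest GC content (under 44.3%) the median log2 fold change was 1.68, and 2821 of 5347 rose while 6 fell. In the third with the highest (over 53.4%) the median was -0.43, and 60 of 5346 rose while 1867 fell. When the smooth trend of level against GC content was removed from each library, and a gene had to be called in this setting too on both scales, 1142 higher genes (7.12%) and 96 lower genes (0.599%) were left. The source of the GC trend was not tested. Its removal kept the level of each library, and on TPM without the removal the median gene was 0.68 higher. A sign said below to turn on TPM with the trend removed is therefore measured against 0 and not against the typical gene. A single gene said below to have risen or fallen was also called with the trend removed, unless the text says otherwise. Counts of risen and fallen genes in a list are without that removal unless stated. The calls also rested on having both libraries of each group, since without any 1 of the 4 2-CM libraries limma called 47 to 50 genes. A set of 39 genes (0.243%) was called on TPM with all 12 libraries of the fit and again with each of them left out in turn, all 39 of them higher, and 20 of these are antiviral effectors. Of the 39, 17 had passed the filter only through the poly I:C libraries, so their direction was fixed by the filter.

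**Figure D2:**
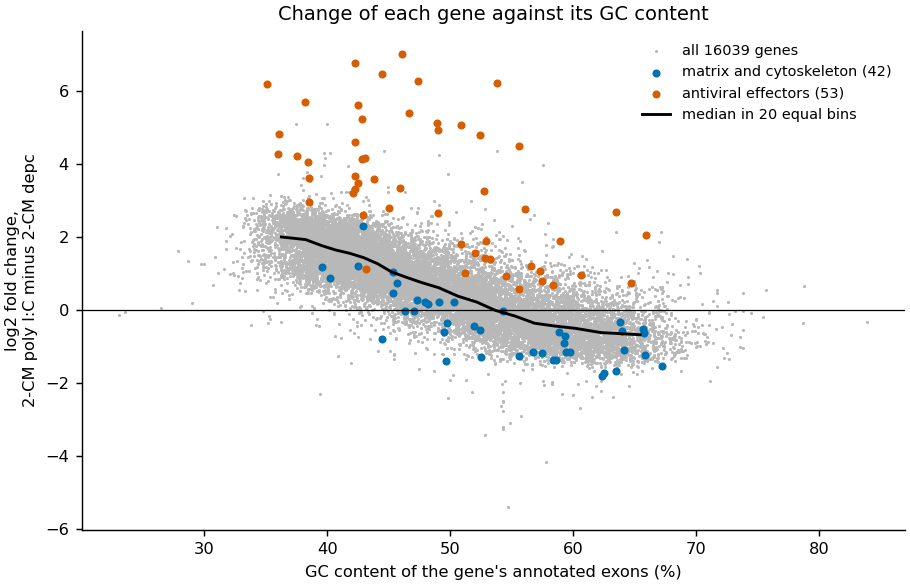
Each point is a gene, with the GC content of its annotated exons in percent on the horizontal axis and its log2 fold change of 2-CM poly I:C minus 2-CM depc on the vertical axis; the black line is the median in 20 bins of equal size. The line falls from low to high GC content, and antiviral effectors lie above it along most of its length.

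Among the interferons, transcripts of type I and type III members appeared with poly I:C. IFNB1, the type I interferon that many non-immune cells make first, was listed at 0 in both depc libraries and reached 4.33 and 4.06 TPM with poly I:C (limma adjusted p = 0.0124). IFNL1, a type III interferon that acts mainly on epithelia, was at 0 and 0.0936 TPM with depc and 14.2 and 17.1 TPM with poly I:C, a log2 fold change of 3.99 ± 0.32 (SE, limma adjusted p = 0.000639), so that IFNL1 stood above IFNB1 in TPM in both poly I:C libraries. IFNL2 and IFNL3, which are near-identical copies and therefore uncertain, were listed at 0 with depc and reached 1.59 and 2.22 and 1.30 and 1.14 TPM. IFNA1 and IFNK were listed at 0 in all 4 libraries. Of the receptor chains, IFNAR1 (3.93 and 3.55 against 19.9 and 16.8 TPM) and IFNGR1 (8.38 and 5.65 against 44.5 and 36.2 TPM) rose, but neither was called after the GC trend was removed. IFNAR2, the signalling chain of the type I receptor (13.3 and 7.19 against 23.1 and 24.2 TPM), and IFNLR1, the chain particular to type III interferon (2.43 and 2.52 against 3.17 and 3.45 TPM), did not pass. In all, 6 of the 10 interferon and receptor genes above the filter rose, of 13 in the list, and none fell, beside 22.1% and 13.0% of all genes. The 4 interferons had passed the filter only through the poly I:C libraries and had to be higher, and of the other 6 genes 2 rose, neither with the GC trend removed.

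The cytosolic sensors rose with the interferons. DDX58 (hg38 chr9:32455302-32526208), which encodes RIG-I, was at 0.978 and 0.597 TPM with depc and 61.7 and 58.7 TPM with poly I:C (log2 fold change 5.11 ± 0.67, limma adjusted p = 0.00859). IFIH1, which encodes MDA5, the sensor of long double-stranded RNA, went from 1.80 and 1.55 TPM to 54.2 and 41.4 TPM (4.18 ± 0.46). Every poly I:C library lay above every depc library for both genes, where groups did not overlap for 88.5% of all genes. For DDX58 this was fixed, since it passed the filter only through the poly I:C libraries. DHX58, the third helicase of the family, was at 3.27 and 4.24 TPM and 22.9 and 29.2 TPM, a log2 fold change of 2.50 ± 0.23, and was among the 39 genes called with each library left out. EIF2AK2, which encodes the kinase PKR that halts translation on double-stranded RNA, was at 3.46 and 2.35 TPM against 49.1 and 39.1 TPM (3.53 ± 0.60). TLR3, the endosomal receptor, was at 0.699 and 0.455 TPM against 9.66 and 9.72 TPM (2.77 ± 0.54). ZBP1, a sensor of left-handed double helices, was listed at 0 with depc and reached 1.69 and 1.38 TPM.

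The adaptors behind these sensors were not called on TPM. MAVS, the adaptor of RIG-I and MDA5, was at 18.2 and 20.8 TPM with depc and 17.1 and 17.3 TPM with poly I:C, and TICAM1, the adaptor of TLR3, at 6.89 and 7.65 TPM and 6.64 and 7.31 TPM (limma adjusted p = 0.438 and 0.875). MAVS was called lower after median-of-ratios scaling only. TBK1 rose, from 4.74 and 2.86 TPM to 35.0 and 27.5 TPM (2.77 ± 0.78), whereas its relative IKBKE fell (14.5 and 16.9 against 9.47 and 10.005 TPM). IRF3, the factor these kinases activate, fell from 240.0 and 291 TPM to 130.03 and 144 TPM (-0.95 ± 0.21, limma adjusted p = 0.0252). The falls of IRF3 and IKBKE were not called once the GC trend was removed, and on unscaled TPM without that trend their sign turned. TRIM25, a ubiquitin ligase that acts on RIG-I, rose from 27.0 and 28.8 TPM to 129 and 131 TPM and held with each library left out. Of 14 sensing genes, 8 rose, all of them also with the GC trend removed, and 2 fell, beside 22.1% (7.12% with the trend removed) and 13.0% of all genes. For 3 of the 14, DDX58, TLR3 and ZBP1, the filter was passed only through the poly I:C libraries, so these had to be higher there, and 5 of the other 11 rose.

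Downstream of the receptors, STAT2 and IRF9 rose. IRF9, the subunit that contacts DNA, was at 1.89 and 2.40 TPM with depc and 59.7 and 66.03 TPM with poly I:C (log2 fold change 4.35 ± 0.26, limma adjusted p = 9.86e-05). STAT2 started higher, at 27.6 and 31.1 TPM, and reached 96.1 and 109 TPM (1.77 ± 0.17). Both were called with each library left out, as was USP18. USP18, which removes ISG15 and restrains the type I receptor, rose from 12.1 and 9.28 TPM to 148 and 160.1 TPM. IRF2, a competitor of IRF1 on promoters, rose from 5.96 and 3.29 TPM to 34.7 and 32.7 TPM. IRF7, the amplifier of type I interferon transcription, was at 8.12 and 10.7 TPM against 39.3 and 50.4 TPM, yet it passed on TPM only and not after scaling (limma adjusted p = 0.0150 and 0.0542). IRF1 likewise passed on TPM only, and its sign turned after scaling. TYK2, one of the receptor kinases, fell from 66.4 and 81.2 TPM to 44.6 and 48.2 TPM, although its sign turned on TPM with the GC trend removed, and SOCS1, a feedback inhibitor, did not pass (16.2 and 21.98 against 28.9 and 33.0 TPM). In this list 5 of 12 rose and 1 fell, where 22.1% and 13.0% of all genes did.

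The antiviral effectors had the largest median change of the lists. Of 53 measured effectors, 42 rose, none fell, and the same 42 were called after the GC trend was removed, beside 22.1% and 7.12% of all genes. Their median log2 fold change was 3.35, against 0.68 over all genes, and together they took 0.863% and 0.927% of TPM with poly I:C against 0.211% and 0.230% with depc. The 2 and 2 libraries did not overlap for any of the 53, beside 88.5% of all genes without overlap. Of the 53, 20 were called with each library left out in turn, and 9 had passed the filter only through the poly I:C libraries, so these had to be higher there. Of the other 44, 33 rose, all 33 with the GC trend removed as well, and their median log2 fold change was 3.005.

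**Figure D3:**
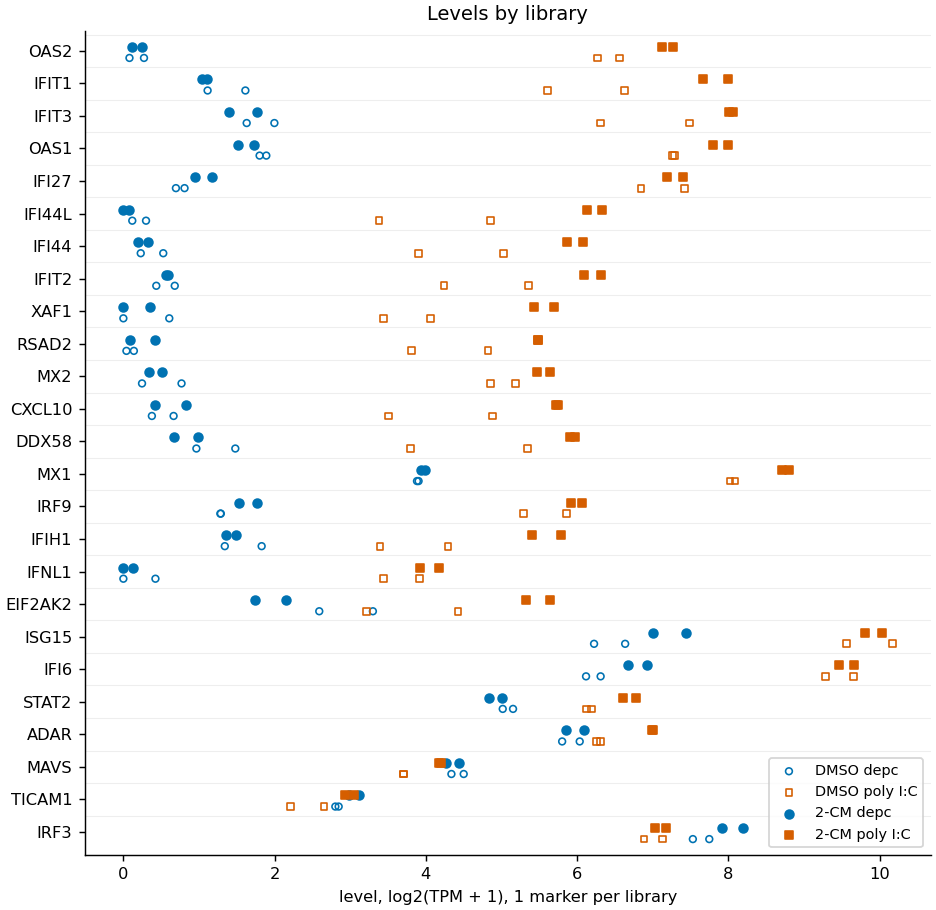
Each row is a gene and each marker a library, with its level as log2(TPM + 1) on the horizontal axis; filled markers are 2-CM libraries, open markers DMSO libraries, circles depc and squares poly I:C. From OAS2 to EIF2AK2 the filled squares stand clear of the filled circles, while MAVS, TICAM1 and IRF3 show little gap or the opposite order. OAS2, IFI44L, IFI44, IFIT2, XAF1, RSAD2, MX2, CXCL10, DDX58 and IFNL1 passed the filter only through 2-CM poly I:C, which fixed their order.

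The oligoadenylate synthetases make short 2'-5'-linked adenylate chains when they bind double-stranded RNA. OAS2 (hg38 chr12:112978395-113011723) had the largest log2 fold change among protein-coding genes that passed the rule for named genes, from 0.0838 and 0.183 TPM to 138 and 154 TPM (7.02 ± 0.30, limma adjusted p = 1.40e-05). OAS1 (hg38 chr12:112906783-112933222) was at 2.32 and 1.87 TPM against 221 and 255 TPM (6.27 ± 0.19, limma adjusted p = 2.98e-06), and OAS3, already at 15.5 and 15.1 TPM with depc, reached 150.4 and 159.9 TPM (3.26 ± 0.17). The catalytically inactive relative OASL was at 1.06 and 1.31 TPM against 68.03 and 76.7 TPM (5.07 ± 0.22). All 4 were called with each library left out, though OAS2 had passed the filter only through the poly I:C libraries and had to be higher.

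The IFIT proteins bind viral RNA and block its translation. IFIT1 (hg38 chr10:89392546-89406487) was at 1.14 and 1.06 TPM with depc and 255 and 202 TPM with poly I:C (6.76 ± 0.55, limma adjusted p = 0.000680). IFIT3, its binding partner, was at 2.40 and 1.64 TPM against 267 and 257 TPM (6.45 ± 0.58). IFIT2 was at 0.474 and 0.512 TPM against 78.7 and 66.99 TPM (5.62 ± 0.54) and overlaps exons of LIPA on the other strand, so its reads are uncertain. IFIT2 had also passed the filter only through the poly I:C libraries, so its direction was fixed. All 3 IFIT genes lie in the same cluster on chromosome 10.

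Membrane and nucleotide-directed effectors were also higher with poly I:C. MX2, RSAD2, IFI44L and XAF1 had passed the filter only through the poly I:C libraries and had to be higher there. IFI27, a mitochondrial interferon-induced protein, was at 1.26 and 0.937 TPM against 145 and 168 TPM (6.23 ± 0.24). MX1 and MX2, dynamin-like GTPases that trap viral capsids, were at 14.8 and 14.3 and 0.421 and 0.265 TPM with depc and at 419 and 446 and 43.4 and 48.7 TPM with poly I:C. RSAD2, or viperin, which makes a chain-terminating nucleotide, was at 0.336 and 0.0675 TPM against 43.6 and 43.9 TPM, and its neighbour CMPK2, a nucleotide kinase that partly overlaps it on the other strand, at 1.18 and 0.856 TPM against 60.4 and 61.5 TPM. These genes had next to no transcript with depc except MX1. IFI44L was at 0.0552 and 0 TPM against 79.1 and 69.2 TPM and XAF1, a pro-apoptotic protein, at 0 and 0.276 TPM against 51.0 and 42.3 TPM. IFITM1, which blocks viral entry at membranes, was at 16.0 and 23.8 TPM against 441 and 494 TPM (4.51 ± 0.22).

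Effectors that were abundant with depc had smaller log2 fold changes. ISG15, a ubiquitin-like modifier, was at 128 and 173 TPM against 894 and 1042 TPM (2.69 ± 0.30) and IFI6, an inner mitochondrial membrane protein, at 100.9 and 120.3 TPM against 708 and 808 TPM (2.77 ± 0.22). The most abundant of the list, IFITM3, was at 859 and 942 TPM against 1658 and 1872 TPM and, like BST2, which tethers budding virions (281 and 290.1 against 487 and 518 TPM), was called on TPM but not after scaling, where the sign of BST2 turned. Reads of the IFITM genes may be shared among close copies.

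Outside the lists, 11 of the 39 genes called with each library left out remained. Of these, HSH2D, RTP4, CFI, AL445490.1, AC116407.2, PRAL, AC009065.9 and AL035461.3 had passed the filter only through the poly I:C libraries. Their direction was therefore fixed, and that of BATF2, BISPR and AC015912.3 was not. HSH2D, an adaptor protein of blood cells, was at 0.114 and 0.160 TPM with depc and 11.03 and 13.0 TPM with poly I:C (3.51 ± 0.21, limma adjusted p = 0.000114), and shares exon sequence with RAB8A. RTP4, a receptor transport protein, was at 0.390 and 0.172 TPM against 9.81 and 12.4 TPM (3.24 ± 0.34), and BATF2, a transcription factor induced by interferon, at 2.55 and 3.13 TPM against 18.0 and 20.3 TPM (2.39 ± 0.23). CFI, the complement protease factor I, was listed at 0 with depc and reached 1.36 and 1.18 TPM, and it was not called once the GC trend was removed. Of the 11 genes 4 are long non-coding RNAs. BISPR, which lies beside BST2 and shares exon sequence with MVB12A, was at 3.04 and 1.98 TPM against 19.9 and 19.3 TPM, and AL445490.1, whose span on chromosome 1 partly overlaps that of IFI6, was listed at 0 with depc and reached 19.96 and 16.4 TPM. AC015912.3 lies next to TRIM25 and was at 1.94 and 1.90 TPM against 12.05 and 11.6 TPM, and AC116407.2 was at 0.300 and 0.345 TPM against 14.5 and 20.3 TPM. PRAL lies opposite XAF1 on the other strand, and although the library kit marks strand, the StringTie command in the file headers carries no strand option, so its value (0.103 and 0.0897 against 1.97 and 1.47 TPM) cannot be told apart from reads of XAF1, and PRAL was not called once the GC trend was removed. AC009065.9 and AL035461.3 share sequence with SNORD60 and with CRLS1 and MCM8.

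Chemokines that attract T cells rose, as did the death ligand TRAIL. CXCL10, a ligand of the chemokine receptor CXCR3 of T cells, was at 0.778 and 0.334 TPM with depc and 51.8 and 52.6 TPM with poly I:C (5.11 ± 0.50, limma adjusted p = 0.00193), and CXCL11, a second ligand of that receptor, at 0.192 and 0.0449 TPM against 8.996 and 8.73 TPM (3.14 ± 0.49). The remaining ligand of the trio, CXCL9, was listed at 0 in all 4 libraries. CCL5 was at 1.41 and 1.15 TPM against 11.7 and 18.4 TPM (2.78 ± 0.27) and was, with CXCL10, called with each library left out. TNFSF10, or TRAIL, was at 2.03 and 1.15 TPM against 53.9 and 44.6 TPM (4.29 ± 0.58). TNFSF13B, or BAFF, the B cell survival factor studied in Sjögren's syndrome, was at 0.0657 and 0.0736 TPM against 2.82 and 2.72 TPM and was not called once the GC trend was removed. IL6 was at 0.970 and 0.889 TPM against 16.1 and 18.3 TPM (3.23 ± 0.36), whereas TNF and IL1B stayed below the filter. IL32 was the single member that fell, from 202 and 196 TPM to 84.5 and 92.2 TPM (-1.16 ± 0.20), and not with the GC trend removed. In all, 12 of 16 chemokines and cytokines above the filter rose, of 23 in the list, and 8 of these held with the GC trend removed, beside 22.1% and 7.12% of all genes. For 7 of the 16, such as CXCL10, CXCL11, IL6 and TNFSF13B, the filter was passed only through the poly I:C libraries and fixed the direction. Of the other 9, 6 rose, 4 of them with the GC trend removed as well.

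Genes of the NF-kB pathway went in both directions. NFKBIA, the inhibitor that NF-kB itself induces, was at 55.2 and 50.8 TPM with depc and 164 and 164 TPM with poly I:C (1.61 ± 0.23, limma adjusted p = 0.0117). NFKBIZ was at 0.837 and 1.05 TPM against 8.43 and 7.28 TPM and BIRC3, a ubiquitin ligase of the pathway, at 6.38 and 4.73 TPM against 57.1 and 42.2 TPM. NFKB2 (72.95 and 78.9 against 44.9 and 49.9 TPM), RELB (34.2 and 37.4 against 20.1 and 20.3 TPM), NFKBIE and TNIP1 fell. Of the 15 genes 3 rose and 4 fell, beside 22.1% and 13.0% of all genes. All 3 that rose held with the GC trend removed, and none of the 4 that fell did, NFKB2, RELB and NFKBIE turning sign there on TPM. TNFAIP3, or A20, passed on TPM only (3.32 and 5.30 against 13.1 and 14.1 TPM).

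Genes of MHC class I presentation went in both directions. B2M, the light chain, rose from 145 and 109 TPM to 670.3 and 689.6 TPM (2.43 ± 0.57, limma adjusted p = 0.0254), and the trimming peptidase ERAP2 rose from 0.380 and 0.484 TPM to 6.35 and 5.62 TPM (2.29 ± 0.45). HLA-B, a heavy chain, fell (46.2 and 100.3 against 30.7 and 33.4 TPM), from depc replicates that differed by more than a factor of 2. Reads of this polymorphic gene with near-identical relatives are uncertain, and its sign turned on TPM with the GC trend removed. TAP1, the peptide transporter, passed on TPM only, at 3.31 and 3.14 TPM against 5.23 and 5.45 TPM, with its sign turned after scaling. The count was 2 risen and 4 fallen of 21, beside 22.1% and 13.0% of all genes. With the GC trend removed the 2 rises held and none of the 4 falls did, beside 7.12% and 0.599% of all genes. ERAP2 had passed the filter only through the poly I:C libraries and had to be higher, which leaves 1 risen of 20. In the list, 11 of the 17 members with a promoter entry carry the GAAANNGAAA letters.

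Among genes of cell death, 9 of 26 above the filter rose and 3 fell, beside 22.1% and 13.0% of all genes. With the GC trend removed 6 of the 9 rises held, beside 7.12% of all genes. PMAIP1, or NOXA, a trigger of mitochondrial apoptosis, was at 3.54 and 2.17 TPM with depc and 38.3 and 25.3 TPM with poly I:C (3.08 ± 0.58). The death receptor FAS (1.23 and 2.04 against 15.3 and 9.66 TPM) and the survival factor MCL1 (24.5 and 21.4 against 105 and 105 TPM) rose and held with the GC trend removed. CASP8, the initiator caspase, rose from 6.91 and 5.69 TPM to 31.0 and 33.0 TPM and did not hold there. BAK1, BCL2L1 and GSDMD fell, all with the sign turned on TPM when the GC trend was removed, and BAX did not pass (263 and 332 against 199.7 and 211 TPM).

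Members of the integrated stress response, which PKR can start by phosphorylating eIF2, went in both directions. ATF4, its central factor, was at 235 and 222 TPM with depc and 225 and 237 TPM with poly I:C and was not called (limma adjusted p = 0.931). ATF3 rose from 10.99 and 5.74 TPM to 28.3 and 26.9 TPM (1.67 ± 0.38), while SLC7A5, an amino acid transporter, fell from 281 and 310.1 TPM to 111 and 113 TPM (-1.39 ± 0.21). PHGDH, the first enzyme of serine synthesis, fell from 211 and 241 TPM to 95.3 and 88.0 TPM (-1.29 ± 0.24) and is the one fall of the list that held with the GC trend removed. DDIT3, or CHOP, passed on TPM only (30.2 and 22.8 against 54.3 and 55.2 TPM). Of 17 genes 3 rose and 4 fell, beside 22.1% and 13.0% of all genes, and 1 of the 3 rises held with the GC trend removed. Among the chaperones of the endoplasmic reticulum, DNAJB9 rose (1.89 and 1.24 against 13.2 and 12.1 TPM), HYOU1 fell, though not with the GC trend removed (63.3 and 59.2 against 35.6 and 34.2 TPM), and HSPA5, or BiP, did not pass (109 and 78.3 against 176 and 165 TPM), with 2 of 16 risen and 3 fallen beside the same shares. Of these chaperones 1 rise and no fall held with the GC trend removed, a setting in which 7.12% of all genes rose and 0.599% fell.

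Immediate early genes, which answer signals without new protein synthesis, included 4 that rose of 13 (22.1% of all genes did), all with the GC trend removed as well. FOS, a subunit of AP-1, was at 2.80 and 1.80 TPM against 18.5 and 15.9 TPM (2.47 ± 0.34), KLF6 at 13.4 and 12.6 TPM against 105 and 88.6 TPM (2.80 ± 0.61) and MYC at 37.9 and 26.9 TPM against 115 and 111 TPM (1.79 ± 0.31). KLF4 rose as well (0.461 and 0.408 against 4.26 and 3.41 TPM), but had passed the filter only through the poly I:C libraries and had to be higher, which leaves 3 of 12. EGR1 passed on TPM (21.7 and 20.9 against 45.1 and 43.2 TPM) and not after scaling.

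Cell cycle genes were mixed. CDK1, the mitotic kinase, rose from 25.04 and 15.7 TPM to 158 and 141 TPM (2.85 ± 0.74) and PCNA, the sliding clamp of DNA replication, from 88.7 and 57.0 TPM to 427 and 408 TPM (2.54 ± 0.69). CDC20, which activates the anaphase-promoting complex, fell from 477 and 494 TPM to 274 and 282 TPM, PLK1 from 139.7 and 139 TPM to 87.4 and 90.2 TPM, and the helicase subunit MCM2 from 214 and 224 TPM to 123.1 and 122.5 TPM. The falls of CDC20, PLK1, MCM2 and MCM7 turned sign on TPM with the GC trend removed. Counts were 6 risen and 2 fallen of 20 genes of G2 and M phase, and 2 and 3 of 20 genes of S phase, beside 22.1% risen and 13.0% fallen over all genes. Of the p53 targets, MDM2 rose (4.35 and 3.74 against 21.0 and 15.9 TPM), FDXR fell (77.7 and 96.3 against 33.8 and 38.7 TPM) and CDKN1A did not pass, with 3 risen and 2 fallen of 14 beside the same shares and none left with the GC trend removed. A risen gene of S phase and a risen p53 target had passed the filter only through the poly I:C libraries. With the GC trend removed 3 of the 6 rises of G2 and M phase and 1 of the 2 of S phase held. None of the falls of these 2 lists did, and over all genes 7.12% rose and 0.599% fell in that setting.

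Many genes of the matrix and cytoskeleton fell. Of 42 above the filter, 21 fell (13.0% of all genes did) and 1 rose, and the list's median log2 fold change was -0.58 against 0.68 over all genes. The filamins, which cross-link actin, were at 339.9 and 405 TPM with depc and 113 and 112 TPM with poly I:C for FLNA (hg38 chrX:154348524-154374638, -1.71 ± 0.21, limma adjusted p = 0.00538), and at 121 and 141 TPM against 36.6 and 37.6 TPM for the muscle form FLNC (-1.79 ± 0.20). HSPG2, or perlecan, was at 24.6 and 31.4 TPM against 7.61 and 8.46 TPM (-1.67 ± 0.21). For these genes the poly I:C libraries agreed more closely than the depc libraries. After removal of the GC trend 3 of the 21 were still called, beside 0.599% of all genes called lower. They included the basement membrane collagen COL4A2 (53.5 and 60.9 against 20.3 and 22.1 TPM) and fibronectin, FN1 (266 and 213 against 139.6 and 135 TPM). No more than 1 of FLNA, FLNC and HSPG2 can therefore be among the 3. ITGB1, an integrin chain with a GC content of 42.9%, was the gene that rose (68.7 and 63.5 against 359 and 305 TPM), though not with the GC trend removed, and VIM, the most abundant member, did not pass (787 and 612 against 819 and 807 TPM).

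AC008878.1 and AL121900.2, among the 12 protein-coding genes that fell most, were listed at 0 in both poly I:C libraries. They had passed the filter only through the depc libraries and had to be lower. The 12 included 7 that share exon sequence with a neighbour on the same strand or are read-through loci, and these are uncertain. Of the other 5, KRT81, a hair keratin, was at 22.3 and 21.4 TPM with depc and 4.02 and 3.83 TPM with poly I:C (-2.22 ± 0.33, limma adjusted p = 0.0131). MYL9, a myosin light chain, was at 334 and 359 TPM against 88.9 and 80.5 TPM (-2.02 ± 0.39) and ADAM15, a membrane protease, at 207 and 308 TPM against 67.8 and 76.9 TPM (-1.79 ± 0.29). AP1M1, an adaptor subunit of vesicle coats, was at 118 and 82.1 TPM against 17.4 and 18.4 TPM, but the transcript that held most of its TPM differed between the depc replicates. RPP21, a subunit of RNase P, was at 17.5 and 8.13 TPM against 2.08 and 2.77 TPM, with unequal depc replicates. For RPP21 and ADAM15, too, the leading transcript differed between the depc replicates. KRT8 and KRT18, the simple epithelial keratins, fell to 863 and 809.9 TPM and 627 and 579 TPM (-1.15 ± 0.27 and -1.32 ± 0.20), KRT18 also with the GC trend removed. Their exons overlap on opposite strands, so the split of reads between them is uncertain.

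Genes of cholesterol synthesis went in both directions. HMGCS1, which condenses acetyl groups early in the pathway, rose from 9.23 and 6.23 TPM to 49.8 and 34.2 TPM and did not hold with the GC trend removed. IDI1 (10.1 and 8.63 against 75.7 and 60.5 TPM) and SC5D (6.89 and 5.27 against 54.0 and 46.6 TPM) rose and held. DHCR7, which makes cholesterol from its last precursor, fell from 91.1 and 99.4 TPM to 32.1 and 29.5 TPM (-1.60 ± 0.25) and held. CH25H, an interferon-induced enzyme whose oxysterol product is antiviral, rose from 0.0346 and 0.0430 TPM to 1.67 and 2.53 TPM. Of 22 genes 9 rose and 7 fell, beside 22.1% and 13.0% of all genes, and CH25H alone of the 22 had passed the filter only through the poly I:C libraries and had to be higher. With the GC trend removed 4 of the 9 rises and 1 of the 7 falls held, beside 7.12% and 0.599% of all genes.

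The adenosine genes bear on the compound itself, since nucleoside analogues need transport and phosphorylation. The equilibrative transporters SLC29A1 (132 and 144 against 79.0 and 76.1 TPM) and SLC29A2 (45.3 and 56.4 against 27.5 and 30.5 TPM) fell, and both turned sign on TPM with the GC trend removed. ADK, adenosine kinase, was called on TPM and not after scaling, with depc replicates at 13.3 and 4.61 TPM and poly I:C replicates at 31.8 and 38.0 TPM. DCK, deoxycytidine kinase, rose from 5.12 and 4.47 TPM to 42.3 and 33.7 TPM (2.74 ± 0.65) and AHCY, which hydrolyses S-adenosylhomocysteine, fell from 510.1 and 543 TPM to 212 and 204 TPM (-1.33 ± 0.22), both also with the GC trend removed. The receptor ADORA2A fell from 7.03 and 7.07 TPM to 0.619 and 1.24 TPM and shares exons with a read-through locus, and it was not called with the GC trend removed. Counts were 2 risen and 8 fallen of 13, beside 22.1% and 13.0% of all genes, and without a risen gene that passed the filter only through poly I:C they were 1 and 8 of 12. With the GC trend removed only 1 rise and 1 fall held, DCK and AHCY, beside 7.12% and 0.599% of all genes.

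Of 27 nuclear genes for mitochondrial transcription and RNA handling 11 rose and 4 fell, beside 22.1% and 13.0% of all genes. PNPT1 (hg38 chr2:55634061-55693863), the exoribonuclease that degrades mitochondrial double-stranded RNA, was at 4.91 and 4.25 TPM with depc and 77.5 and 64.2 TPM with poly I:C (3.68 ± 0.68, limma adjusted p = 0.0218). TFAM, which packages mitochondrial DNA, was at 5.40 and 3.05 TPM against 39.5 and 32.1 TPM (2.85 ± 0.62), and TRMT10C, a subunit of mitochondrial RNase P, at 4.81 and 2.95 TPM against 35.2 and 26.5 TPM. POLRMT, the mitochondrial RNA polymerase, fell from 44.3 and 58.6 TPM to 18.9 and 20.8 TPM (-1.32 ± 0.30), with its sign turned on TPM without the GC trend. The list's median GC content was 42.9% against 48.3% for all genes. With the trend removed 6 of the 11 rises and none of the 4 falls held, where 7.12% of all genes rose and 0.599% fell. None of the 13 mitochondrially encoded mRNAs passed on both scales. Their median log2 fold change relative to all genes was -0.49 on TPM and -1.22 on scaled TPM with the GC trend removed. MT-CO2, the most abundant, was at 58172 and 54612 TPM against 46198 and 48759 TPM, and MT-ND2 (4817 and 4672 against 7005 and 7236 TPM) and MT-CYB were called higher on TPM, with the sign turned under median-of-ratios and upper-quartile scaling.

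Of 84 cytosolic ribosomal protein genes 27 fell and 2 rose, beside 13.0% and 22.1% of all genes, with RPL13 at 5922 and 8907 TPM against 2423 and 2261 TPM (-1.63 ± 0.31) and RPS16 at 5636 and 6251 TPM against 3274 and 3577 TPM (-0.79 ± 0.25). With the GC trend removed 10 of the 27 falls held, where 0.599% of all genes fell. Ribosomal protein genes have many processed copies, so their reads are uncertain. Of 77 nuclear genes of the respiratory chain 19 fell and 6 rose, beside the same 13.0% and 22.1%. With the GC trend removed 2 falls and 2 rises held, where 0.599% of all genes fell and 7.12% rose. SDHD was at 30.5 and 26.5 TPM against 167 and 201 TPM and NDUFB7 at 534 and 730.3 TPM against 224 and 249 TPM, the latter not called with the trend removed. The zinc finger genes, with a median GC content of 44.1%, had 171 risen and 10 fallen of 455, beside 22.1% and 13.0% of all genes. Without the 98 that had passed the filter only through the poly I:C libraries, 115 of 357 rose. With the trend removed, 26 of the 455 rose as well, beside 7.12% of all genes. ZNF644 was at 1.72 and 1.61 TPM against 18.4 and 13.3 TPM.

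**Figure D4:**
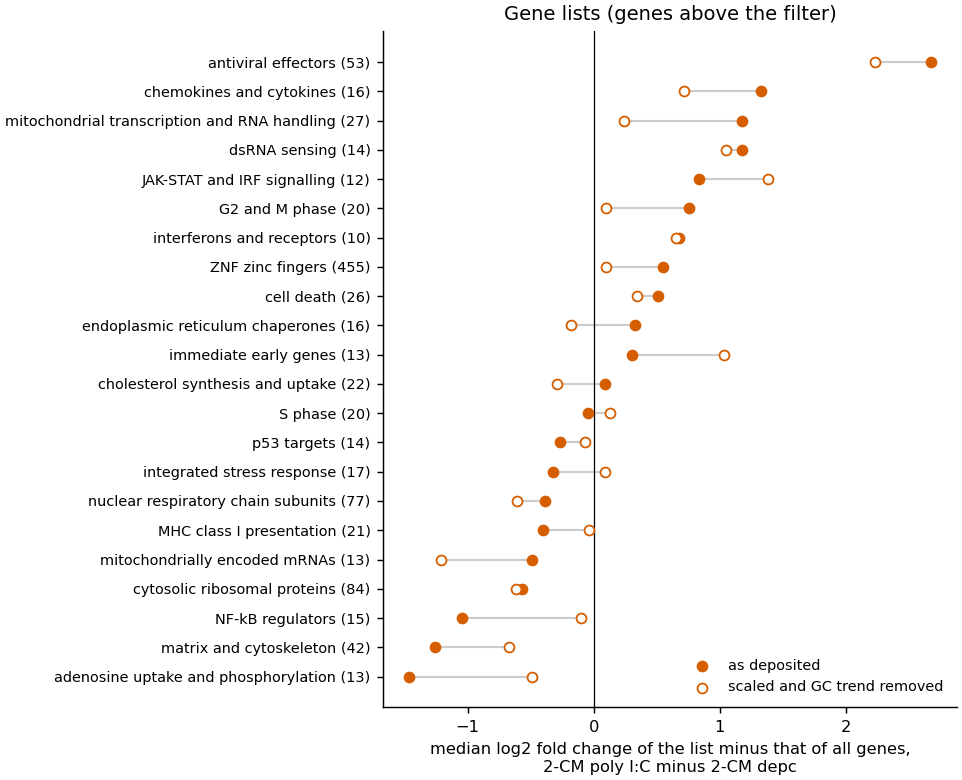
Each row is a gene list with the number of its genes above the filter, and the horizontal axis is its median log2 fold change (2-CM poly I:C minus 2-CM depc) minus the median of all genes. Filled circles are TPM as deposited and open circles scaled TPM with the GC trend removed; antiviral effectors are highest in both (2.67 and 2.23), while the lists for mitochondrial RNA handling (1.18 and 0.24) and NF-kB regulators (-1.04 and -0.10) move towards 0.

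Transcripts within a gene, described here without a test, did not always move together. ADAR edits adenosine in double-stranded RNA, and its interferon-driven form p150 is longer than the constitutive p110. The ADAR transcript whose protein in GENCODE 44 has 1226 residues was at 6.04 and 0.815 TPM with depc and 22.9 and 21.9 TPM with poly I:C. The transcript with 931 residues was at 40.7 and 41.8 TPM against 67.97 and 75.3 TPM, and a second long transcript, of 1200 residues, was at 15.6 and 8.46 TPM against 15.2 and 17.1 TPM, with overlapping groups. ADAR as a whole was at 67.2 and 57.0 TPM against 127 and 126 TPM and passed on TPM only.

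OAS1 gave both of its main forms with poly I:C. Its transcript for 400 residues was at 1.18 and 0.817 TPM with depc and 116 and 149 TPM with poly I:C, and that for 364 residues at 0.475 and 0.892 TPM against 53.7 and 56.9 TPM. Both forms were higher in both poly I:C libraries. The transcripts of MYL9, which fell as a gene, went apart. Its transcript for 118 residues was at 295 and 316 TPM against 33.8 and 14.3 TPM, while that for the full 172 residues was at 39.5 and 43.2 TPM against 55.1 and 66.2 TPM. Short-read assignment among overlapping transcripts is an estimate, and its error is not given in the files.

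**Figure D5:**
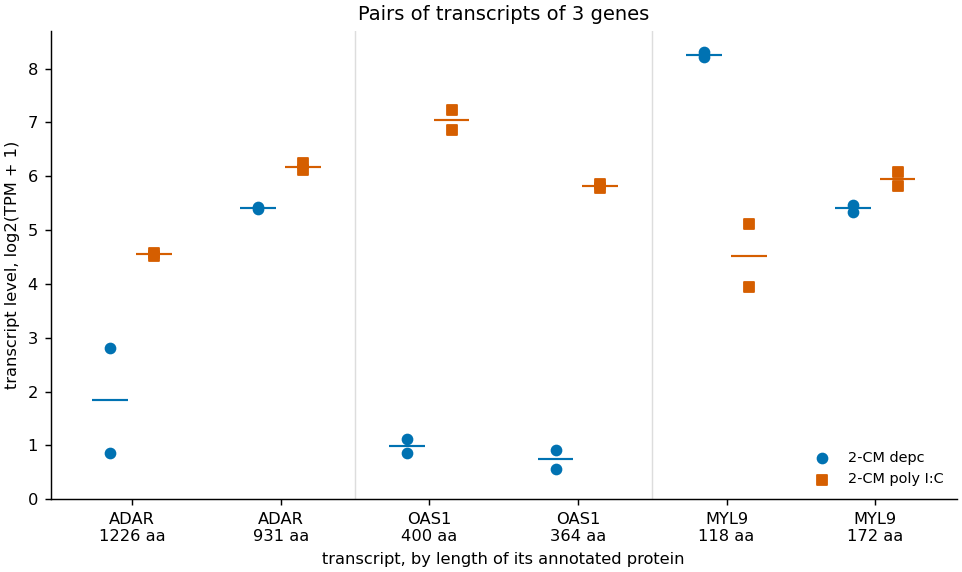
Transcript levels as log2(TPM + 1), with 1 marker per 2-CM library and a bar at the mean of 2; transcripts are named by gene and by the length of the annotated protein in amino acids (aa). The plotted transcripts of ADAR and of OAS1 are higher with poly I:C, and the 2 transcripts of MYL9 go in opposite directions.

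How far this response differs from that without 2-CM was tested as the difference of the 2 responses in the same fit of all 12 libraries. The contrast adds the 4 libraries with DMSO, and the RES libraries enter the spread. That difference was called by limma for 2 genes (0.0125%), AL035461.3 and AC009065.9, while the unadjusted p was under 0.05 for 4944 of 16039. Both genes had passed the filter only through the 2-CM poly I:C libraries, so their response with 2-CM had to be positive. No gene was called with a pseudocount of 0.1 or a TPM minimum of 5, 1 was called with the GC trend removed, and 1 without any single 2-CM library or without DMSO depc replicate 1, DMSO depc replicate 2 or DMSO poly I:C replicate 2. Over all genes the difference had a median of 0.71 on the log2 scale. The DMSO response on its own had 737 called genes (4.60%) and a median of -0.14. The effectors had a median log2 fold change of 3.35 with 2-CM and 2.00 with DMSO, a median difference of 0.90. For 41 of 53 the response with 2-CM was the higher one, beside 12580 of 16039 genes in all (78.4%), and none of the 53 differences was called and 22 had an unadjusted p under 0.05. The filter used the 2-CM libraries alone. Of the 53, 9 had passed only through 2-CM poly I:C, as had 1726 of all genes, and had to respond upward with 2-CM, while 140 of all genes passed only through 2-CM depc. These medians and counts therefore lean towards 2-CM by the filter, and by how much was not tested. IFIT1 was at 2.06 and 1.16 TPM with DMSO depc and 97.5 and 47.7 TPM with DMSO poly I:C, and its response differed by 2.01 ± 0.77 on the log2 scale (2-CM minus DMSO, SE). For IFI27 the DMSO values were 0.619 and 0.752 TPM and 114 and 170.1 TPM, and the difference was -0.15 ± 0.34. EIF2AK2 was at 8.85 and 5.02 TPM and 20.5 and 8.27 TPM with DMSO, with overlapping groups, and differed by 2.66 ± 0.85. Matrix and cytoskeleton genes had a median of -1.14 with DMSO and -0.58 with 2-CM, beside -0.14 and 0.68 over all genes. Their median difference was 0.63, below the 0.71 of all genes, and none of the list's differences was called. In that list FN1 was at 259.6 and 214 TPM against 42.1 and 32.5 TPM with DMSO, a difference of 1.85 ± 0.33.

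The authors' deposited table for 2-CM gives its own test of the same contrast, and which libraries entered that fit is not given in the sources used here. Among the 16039 genes it held 5218 higher (32.5%) and 5309 lower (33.1%) at an adjusted p under 0.05. Of the 3546 genes that rose here 3303 were among the former, and of the 2088 that fell 2071 were among the latter. Of the 13 mitochondrially encoded mRNAs, none of which passed on both scales here, 11 were among the lower and 0 among the higher. The log2 fold change in the authors' deposited table was 9.04 for OAS2, 6.84 for IFIT1, 1.58 for B2M and -2.60 for FLNA.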

How the data were processed

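Total RNA was read as 2 x 101 bases from poly(A) libraries made with a stranded kit. Per the submitters' processing notes, the authors used bcl2fastq 2.20, HISAT2 2.1.0, StringTie, DESeq2 and hg38. Per the file headers, StringTie 2.0.4 quantified annotated GENCODE 32 transcripts with no strand option. The deposited files give coverage, FPKM and TPM per transcript. The authors' deposited comparison tables hold a mean normalised count (used here as a signal only), a log2 fold change, its standard error (a score) and p-values.

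Transcript TPM was summed per gene. No gene counts were used, so the log2(TPM + 1) values of 12 libraries in 6 groups were fitted with limma 3.58.1 in R 4.3.3 (trend, 6 residual degrees of freedom) and Benjamini-Hochberg adjusted over 16039 genes at 0.05. Reads were estimated as coverage times length over 101. The second scale divided TPM by median-of-ratios size factors. The GC trend was a lowess of level on exon GC content (span 0.2) per library. The fit was also run on simulated data with known changes, and the outcome is not reported here. Alternatives were other scalings, pseudocounts, filters, FPKM, voom on estimated reads, a replicate block and leaving out each library.

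Named genes were the 12 protein-coding genes with the largest change per direction (at least 5 TPM in the higher group) and members of 22 gene lists. Genes called with every library left out, and the transcripts and promoters shown, were added after their values were seen. Members and lists were chosen with earlier results of these data known. Replicate numbers were not taken to pair libraries, since no label ties them and replicate differences of 15 pairs of groups correlated above 0.1 in 10 and below -0.1 in 5, all with RES poly I:C. Among the DMSO and 2-CM groups the correlations ran from 0.197 to 0.660, and 2-CM depc with 2-CM poly I:C gave 0.197. The RES libraries entered the fit but were not otherwise analysed here. Values of some list members are not reported here, though the lists' counts include them.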

Additional observations from a re-analysis of the deposited data

Results flagged for a closer look

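The response to poly I:C differed between 2-CM and DMSO for 2 genes by limma's test of the difference itself. Both had passed the filter only through the 2-CM poly I:C libraries, which fixed their 2-CM response as positive, and no gene was called with a pseudocount of 0.1 or a TPM minimum of 5 and 1 gene without any single 2-CM library. AL035461.3, annotated as protein-coding at hg38 chr20:5950949-6039856 with same-strand exon overlap to MCM8 and CRLS1, was listed at 0 in the 2-CM depc libraries and in all 4 DMSO libraries and at 5.56 and 5.89 TPM in the 2-CM poly I:C libraries, a difference between the responses of 2.75 ± 0.17 (log2, SE, adjusted p = 0.00117). AC009065.9, a small nucleolar RNA of 80 bases at hg38 chr16:2155025-2155104 that overlaps SNORD60, was at 0.525 and 0.558 TPM with 2-CM depc and 6.52 and 6.92 TPM with 2-CM poly I:C, and at 1.24 and 0.801 TPM with DMSO depc and 0.0852 and 0.0876 TPM with DMSO poly I:C. Its responses went in opposite directions and differed by 3.21 ± 0.28 (log2, SE, adjusted p = 0.0136). These levels rest on a mean of 1.3 estimated reads with 2-CM depc and 11.2 with 2-CM poly I:C, and the authors' deposited table gives AC009065.9 an adjusted p of 0.309 with 2-CM. Both loci share sequence with other genes, so the assignment of their reads is uncertain.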

How the results depend on the processing

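The counts of called genes rested on the filter and on every 2-CM library. On TPM, 8681 genes were called, 1901 with no filter on low genes, 39 with each library left out in turn, and 47 to 10144 over the single omissions (47 to 50 without a 2-CM library, where the lone library is assumed to vary like the other groups). On both scales 5634 were called, 2463 with the GC trend removed from both, 1238 when calls with and without the trend were required, 172 with no filter, and 29 to 6483 over the omissions. For the difference between 2-CM and DMSO, called for 2 genes, the count was 1 with the GC trend removed, 0 with a TPM minimum of 5, 7 with no filter, 0 with a pseudocount of 0.1, and 1 to 3 over the omissions. A replicate block, which pairs libraries by number only, gave 9032, 5699 and 2 calls. Upper-quartile scaling was not run for calls on both scales, and the 4 2-CM libraries alone give no difference from DMSO. Fitted alone, those 4 libraries gave 11775 calls on TPM and 8426 on both scales. The cause of these changes was not tested.

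List medians relative to all genes turned sign as follows. With the GC trend removed they were 0.21 for the integrated stress response, -0.10 for chaperones, 0.032 for p53 targets, 0.25 for S phase and -0.19 for cholesterol synthesis. With no filter they were 0.15 for MHC class I, 0.17 for the integrated stress response, 0.29 for p53 targets, 0.52 for S phase, -0.017 for cholesterol synthesis, 0.071 for mitochondrial mRNAs and 0.17 for the respiratory chain. S phase was 0.0072 on FPKM and -0.15 to 0.13 over the omissions. Cholesterol synthesis was -0.65 with a TPM minimum of 5, -0.12 with voom, -0.025 with a pseudocount of 0.1, -0.0015 with upper-quartile and -0.043 with median-of-ratios scaling, and -0.092 to 0.20 over the omissions. Immediate early genes were at -0.053 with a TPM minimum of 5.

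Named genes whose log2 fold change turned sign on TPM with the GC trend removed were BAK1 0.34, BCL2L1 0.42, CD14 0.21, CDC20 0.24, GSDMD 0.39, HLA-B 0.074, HSD17B10 0.015, IKBKE 0.44, IRF3 0.20, MCM2 0.090, MCM7 0.31, MT-ND2 -0.13, NFKB2 0.58, NFKBIE 0.34, PLK1 0.36, POLRMT 0.023, PSMB10 0.51, RELB 0.51, SLC29A1 0.28, SLC29A2 0.48 and TYK2 0.55. These signs are measured against 0. Removal of the trend kept each library's level, and the median gene was 0.68 higher on TPM without it, above every positive value just listed. Under median-of-ratios scaling the genes that turned sign were BST2 -0.047, IRF1 -0.091, MT-CYB -0.31, MT-ND2 -0.28 and TAP1 -0.11, and under upper-quartile scaling MT-CYB -0.046 and MT-ND2 -0.0094. Of 160 genes examined by name 147 were called on TPM, and 36 of these with each library left out, beside 54.1% and 0.243% of all genes. Many of the 160 were named because they were called, so these counts follow from the choice. Depth limits low genes, and StringTie coverage gives estimates rather than counts of reads.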
